A study of Mus musculus with 39 samples.

Results

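Oligodendrocyte precursor genes were described in mouse brain RNA after treatment with antisense oligonucleotides (ASOs) or saline. The 10 genes were Pdgfra, Cspg4, Vcan, Lhfpl3, Ptprz1, C1ql1, Gpr17, Neu4, Bmp4 and Xylt1. They were chosen with earlier results of these data known, and matched by symbol to the Ensembl identifiers of the deposited files. They were 10 of the 52636 genes listed, and all 10 passed the filter on low counts that left 19246 genes for testing. Each of the 10 had between 71 and 8685 reads in every library.

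The series sequenced polyadenylated RNA in 39 libraries to compare treatments, among them ASOs directed at Tmem106b, the gene of a lysosomal membrane protein. ASO 1 (code RTR114030) had 3 libraries, ASO 2 (RTR113622) 5, ASO 3 (RTR113656) 4 and ASO 4 (RTR113792) 5. A further 4 treatments carried a code with no ASO number: RTR113609 with 4 libraries, RTR113643 with 5, RTR113841 with 3 and RTR59155 with 5. Saline was given to the last 5 libraries, which served as controls. The labels state brain as the tissue of all 39, while the text on extraction names a cell pellet. The sources used here give no target for the 4 coded treatments and no region, strain, genotype, age, sex, dose, route or time. Nothing says that each library of a group is from its own animal, and p-values therefore measure only how these samples vary, which may be technical.

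Oligodendrocyte precursors are dividing glial cells spread through grey and white matter, and they give rise to the myelinating oligodendrocytes. They read platelet-derived growth factor through the receptor Pdgfra and carry the chondroitin sulfate proteoglycans NG2 (Cspg4), versican (Vcan) and phosphacan (Ptprz1) at their surface or in the matrix around them. As they leave the cell cycle and commit to differentiation, Pdgfra and Cspg4 decline while Gpr17, Neu4 and Bmp4 rise for a time. Several of the genes are also read in other brain cells: Pdgfra in fibroblasts, Cspg4 in pericytes and Ptprz1 in astrocytes. In RNA of whole tissue, fewer cells of a type and less RNA per cell cannot be told apart.

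Depth was 19.7 M (mega) to 44.2 M counts per library, with a mean of 34.0 ± 3.90 M (SD, n = 39). Tmem106b stood at 43.9 to 120.0 CPM (counts divided by the scaled size of the library) in the 34 treated libraries and at 171.2 to 214.5 CPM in the 5 saline libraries, with no overlap. Its range in RTR113609 was 55 to 88.7 CPM. The hypothalamic neuropeptide gene Pmch exceeded 5 CPM in 11 libraries, none of them RTR113609 or saline. Transcripts of 6 neuronal genes summed to 6505 to 7746 CPM in RTR113609 and 6983 to 7606 CPM in saline.

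Of the 10 precursor genes, 5 fell in RTR113609, and none passed the test in any of the other 7 treatments against saline. The 5 were Lhfpl3, Neu4, Ptprz1, Gpr17 and Vcan, at levels 21.3 to 44.8% below saline. Pdgfra, Cspg4, C1ql1, Bmp4 and Xylt1 did not pass in RTR113609. The test was edgeR's quasi-likelihood test over all 19246 genes with Benjamini-Hochberg adjustment, and a gene passed at an adjusted p below 0.05. Against saline, RTR113609 had 6.67% of all tested genes past the threshold and 4.32% lower, beside 5 lower of the 10. The 10 genes were chosen with earlier results of these data known, so setting them beside that share is no test. The median log2 fold change was -0.29 over the 10 genes and 0.003 over all tested genes. The mean log2 level of the 10 genes was 4.49 to 4.65 in the 4 RTR113609 libraries and 4.78 to 4.89 in the 5 saline libraries.

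**Figure D1:**
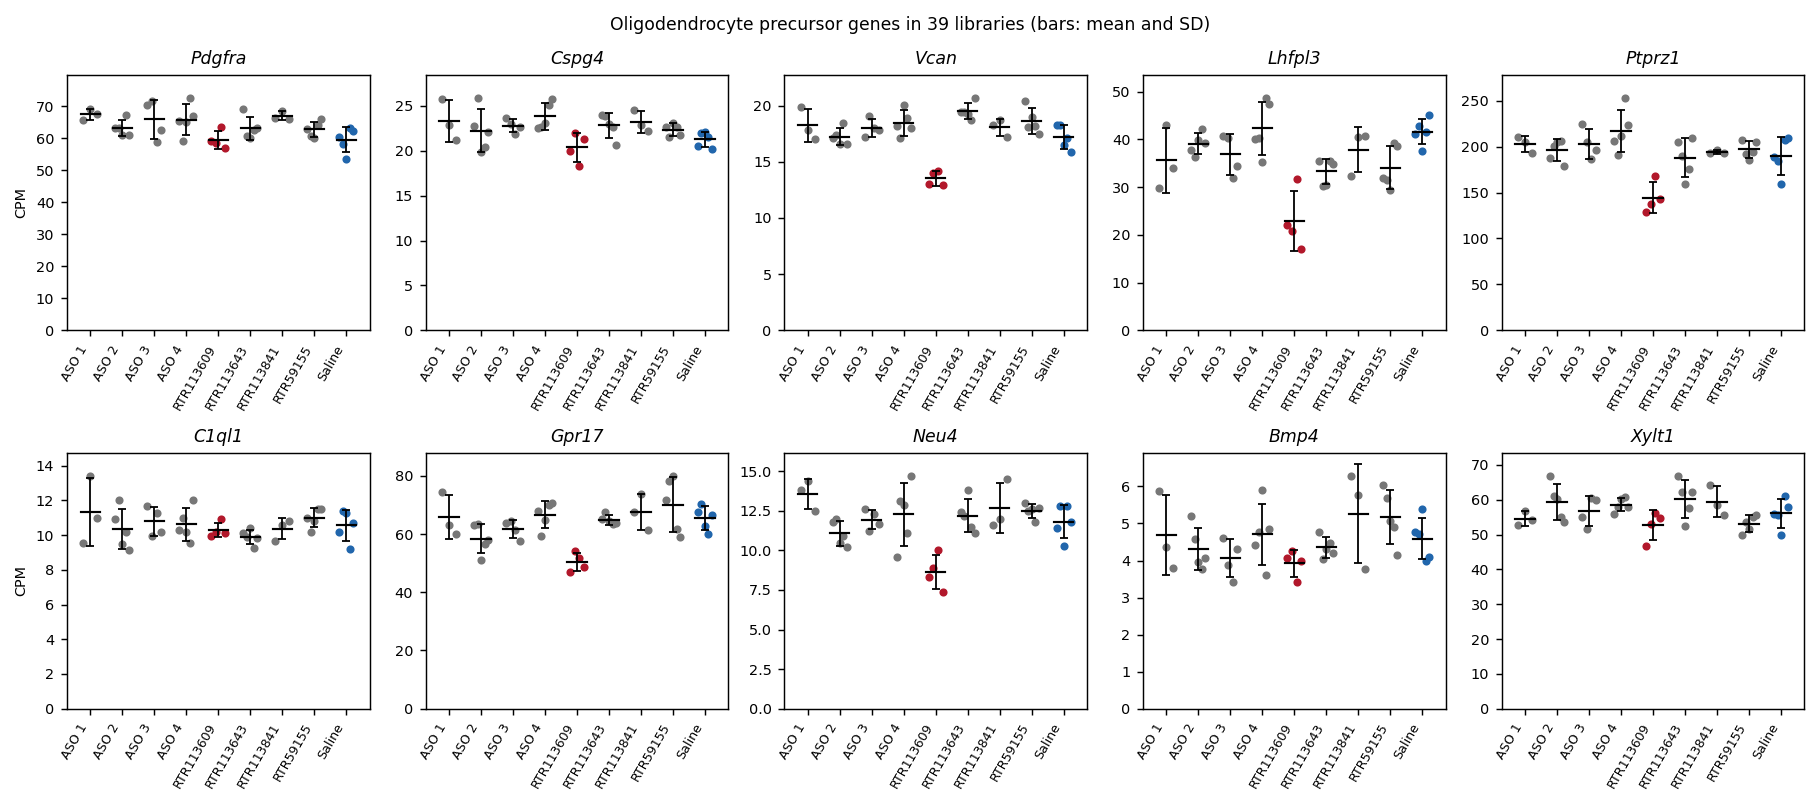
Level of each of the 10 genes in every library in CPM (y axis, from 0), by treatment (x axis, saline last), with the mean and SD of each group as bars. RTR113609 is red, saline blue and the other treatments grey. For Vcan the 4 RTR113609 libraries lie at 12.9 to 14.2 CPM, below all 35 others.

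Vcan, the matrix proteoglycan versican, gave the cleanest separation. Its level was 13.0, 14, 14.2 and 12.9 CPM in the 4 RTR113609 libraries, and 18.3, 18.3, 16.5, 17.1 and 15.9 CPM in the 5 saline libraries. All 4 RTR113609 libraries lay below all 35 other libraries, whose lowest value was 15.9 CPM. The means were 13.5 ± 0.659 CPM in RTR113609 (SD, n = 4) and 17.2 ± 1.07 CPM in saline (SD, n = 5), and the log2 fold change was -0.35 (SE 0.058, adjusted p = 4.19e-05 by edgeR's quasi-likelihood test).

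Lhfpl3, which encodes a membrane protein with 4 membrane-spanning segments, fell furthest. RTR113609 libraries had 22.1, 20.7, 31.7 and 17.1 CPM, against 41.2, 42.7, 37.6, 41.6 and 45.1 CPM in saline libraries. The groups did not overlap, although replicate 3 of RTR113609 stood above the other 3. The mean was 22.9 ± 6.25 CPM in RTR113609 (SD, n = 4) and 41.6 ± 2.73 CPM in saline (SD, n = 5), and the log2 fold change was -0.86 (SE 0.13, adjusted p = 1.85e-05 by edgeR's quasi-likelihood test). That is 44.8% lower, with a 95% confidence interval on the log2 scale of -1.11 to -0.60. Without replicate 3 of RTR113609 the log2 fold change was -1.05.

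Ptprz1, a receptor-type tyrosine phosphatase whose secreted form is the matrix proteoglycan phosphacan, fell less. Its levels were 129.1, 137.5, 168.5 and 143.1 CPM in RTR113609, against 189.0, 184.1, 159.5, 207.7 and 209.8 CPM in saline. The groups overlapped through 1 library on each side, RTR113609 replicate 3 and saline replicate 3. The log2 fold change was -0.39 (SE 0.082, adjusted p = 0.00129 by edgeR's quasi-likelihood test), with means of 144.5 ± 17.0 CPM in RTR113609 (SD, n = 4) and 190.0 ± 20.5 CPM in saline (SD, n = 5).

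The remaining falls were in genes of the step from precursor to new oligodendrocyte. Gpr17, a G protein-coupled receptor that in mice holds committed precursors back from maturing, had 46.9, 54.0, 51.9 and 48.8 CPM in RTR113609, against 67.6, 70.2, 62.8, 60 and 66.6 CPM in saline. Every RTR113609 library lay below every saline library (log2 fold change -0.38, SE 0.077, adjusted p = 0.000928 by edgeR's quasi-likelihood test). Neu4, a sialidase that trims sialic acid from glycoproteins and glycolipids, had 8.33, 8.88, 10 and 7.39 CPM in RTR113609, against 11.4, 12.8, 10.3, 12.8 and 11.8 CPM in saline. Its groups did not overlap either, with the highest RTR113609 library at 10 CPM and the lowest saline library at 10.3 CPM. The log2 fold change of Neu4 was -0.44 (SE 0.093, adjusted p = 0.00108 by edgeR's quasi-likelihood test). Gpr17 lies on the minus strand of chromosome 18 within the span of Lims2, which is on the other strand and had 27.27% as many counts, and the strand setting of the counting is not given. Lims2 itself had 16.2 ± 1.28 CPM in RTR113609 (SD, n = 4) and 16.7 ± 0.982 CPM in saline (SD, n = 5), a log2 fold change of -0.05 (adjusted p = 0.791 by edgeR's quasi-likelihood test).

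Pdgfra, the growth factor receptor that defines the cells, had the same mean level in both groups. It had 59.1, 58.5, 63.5 and 57.1 CPM in RTR113609, against 60.5, 58.2, 53.7, 63.4 and 62.2 CPM in saline. The means were 59.6 ± 2.77 CPM in RTR113609 (SD, n = 4) and 59.6 ± 3.80 CPM in saline (SD, n = 5), and the 95% confidence interval of the log2 fold change ran from -0.11 to 0.10. Cspg4, the NG2 proteoglycan, had 20, 22, 18.3 and 21.3 CPM in RTR113609, against 20.5, 22, 22.1, 21.5 and 20.2 CPM in saline (interval -0.19 to 0.07). For both genes the groups overlapped, and a change of the size seen for Vcan or Lhfpl3 lay outside the interval. Fibroblasts also carry Pdgfra: of 8 fibroblast genes 2 fell, and all 8 had negative fitted values, with a median log2 fold change of -0.26. The summed level of the 8 was 186.7 to 222.0 CPM in RTR113609 and 210.2 to 262.1 CPM in saline. Pericytes also carry Cspg4: of 8 pericyte genes 1 rose and 2 fell, with a sum of 281.5 to 298.1 CPM in RTR113609 and 256.6 to 288.4 CPM in saline. The part of these cells in the levels of Pdgfra and Cspg4 was not tested.

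Secreted and Golgi proteins close the list. Bmp4, a secreted ligand that holds back oligodendrocyte differentiation, had 4.06, 4.26, 3.41 and 3.98 CPM in RTR113609, against 4.78, 4.71, 5.38, 4.00 and 4.10 CPM in saline. The groups overlapped, and with a log2 fold change of -0.23 the 95% interval of -0.50 to 0.05 held both no change and a fall as large as that of Gpr17. C1ql1, a secreted C1q-like protein that binds the adhesion receptor Adgrb3, stood at 10.3 ± 0.402 CPM in RTR113609 (SD, n = 4) and 10.5 ± 0.889 CPM in saline (SD, n = 5), with an interval of -0.20 to 0.12. Xylt1, the xylosyltransferase that starts chondroitin and heparan sulfate chains on proteoglycan core proteins, stood at 52.8 ± 4.22 CPM in RTR113609 (SD, n = 4) and 56.0 ± 4.14 CPM in saline (SD, n = 5), with an interval of -0.21 to 0.04. Ranges of the groups overlapped for all 3 genes.

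Levels set per length (RPKM, reads divided by gene width and by library size, as deposited) placed the 10 genes in this order. In RTR113609 the means were 12.7 ± 1.5 RPKM for Ptprz1, 8.53 ± 0.483 for Gpr17, 6.28 ± 1.75 for Lhfpl3, 6.14 ± 0.258 for C1ql1, 5.98 ± 0.319 for Pdgfra and 5.15 ± 0.377 for Xylt1 (SD, n = 4). In saline they were 16.6 ± 1.80 RPKM for Ptprz1, 11.3 ± 0.769 for Lhfpl3, 11.0 ± 0.684 for Gpr17, 6.24 ± 0.541 for C1ql1, 5.92 ± 0.380 for Pdgfra and 5.42 ± 0.408 for Xylt1 (SD, n = 5). Lhfpl3 and Gpr17 were neighbours with overlapping ranges in saline. In RTR113609 the range of Lhfpl3 (4.63 to 8.73 RPKM) still overlapped that of Gpr17 (8.07 to 9.05 RPKM), and it also reached those of C1ql1, Pdgfra and Xylt1. The lower 4 were Cspg4, Neu4, Bmp4 and Vcan, from 0.889 ± 0.0432 RPKM for Vcan to 2.21 ± 0.157 RPKM for Cspg4 in RTR113609 (SD, n = 4), and from 1.12 ± 0.0681 RPKM for Vcan to 2.28 ± 0.0993 RPKM for Cspg4 in saline (SD, n = 5). Vcan was the lowest per length in both groups.

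The ratio of each gene to Pdgfra in the same library does not depend on library scaling. For Lhfpl3 that CPM ratio was 0.299 to 0.500 in RTR113609 and 0.656 to 0.733 in saline. For Vcan it was 0.221 to 0.240 in RTR113609 and 0.256 to 0.314 in saline, for Ptprz1 2.19 to 2.65 in RTR113609 and 2.97 to 3.37 in saline, and for Neu4 0.129 to 0.158 in RTR113609 and 0.188 to 0.219 in saline. For Gpr17 it was 0.793 to 0.923 in RTR113609 and 0.948 to 1.2 in saline. The ranges of the groups were thus apart for all 5 genes that fell, Ptprz1 included, and they overlapped for Cspg4, C1ql1, Bmp4 and Xylt1. The 5 were picked by their falls in these same libraries, and Pdgfra had the same mean in both groups. The ratios are therefore no separate test of the falls.

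Promoters are shown for 4 of the genes that fell and for Pdgfra, which did not pass the test, so that their sequences can be set side by side. Of the 10 genes, 7 had an entry in the RefSeq promoter table of build GRCm38.p6, which gives 250 bases before the start and 50 after it, and the text prints 5 of them. They are Vcan (chr13:89742463-89742762, minus strand), Lhfpl3 (chr5:22745804-22746103, plus strand), Ptprz1 (chr6:22875252-22875551, plus strand), Neu4 (chr1:94020243-94020542, plus strand) and Pdgfra (chr5:75152001-75152300, plus strand). Capitals mark matches to CAGCTG, an E-box of the kind bound by basic helix-loop-helix factors such as Olig2, or to ACAAAG or ACAATG, cores bound by Sox factors such as Sox10. Both strands were searched.
Vcan: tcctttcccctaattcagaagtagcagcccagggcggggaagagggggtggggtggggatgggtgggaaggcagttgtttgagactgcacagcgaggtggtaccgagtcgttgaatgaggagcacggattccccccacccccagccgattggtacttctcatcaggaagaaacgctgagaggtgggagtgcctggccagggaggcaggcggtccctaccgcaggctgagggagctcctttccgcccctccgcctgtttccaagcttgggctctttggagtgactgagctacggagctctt
Lhfpl3: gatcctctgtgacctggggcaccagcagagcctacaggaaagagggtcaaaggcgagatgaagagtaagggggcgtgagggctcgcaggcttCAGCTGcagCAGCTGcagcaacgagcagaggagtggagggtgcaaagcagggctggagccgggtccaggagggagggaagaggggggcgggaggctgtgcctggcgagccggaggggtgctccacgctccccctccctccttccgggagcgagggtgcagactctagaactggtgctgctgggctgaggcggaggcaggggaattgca
Ptprz1: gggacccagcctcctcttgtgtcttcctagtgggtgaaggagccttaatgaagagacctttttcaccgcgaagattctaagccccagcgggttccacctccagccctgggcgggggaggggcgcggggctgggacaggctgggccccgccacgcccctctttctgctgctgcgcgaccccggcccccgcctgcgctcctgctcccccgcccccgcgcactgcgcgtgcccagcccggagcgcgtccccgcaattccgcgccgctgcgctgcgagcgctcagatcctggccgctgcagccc
Neu4: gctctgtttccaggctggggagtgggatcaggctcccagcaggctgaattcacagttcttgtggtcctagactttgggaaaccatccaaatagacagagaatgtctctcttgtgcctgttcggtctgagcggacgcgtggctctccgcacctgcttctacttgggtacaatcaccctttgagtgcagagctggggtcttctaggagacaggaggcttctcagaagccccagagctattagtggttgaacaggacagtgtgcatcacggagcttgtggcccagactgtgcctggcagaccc
Pdgfra: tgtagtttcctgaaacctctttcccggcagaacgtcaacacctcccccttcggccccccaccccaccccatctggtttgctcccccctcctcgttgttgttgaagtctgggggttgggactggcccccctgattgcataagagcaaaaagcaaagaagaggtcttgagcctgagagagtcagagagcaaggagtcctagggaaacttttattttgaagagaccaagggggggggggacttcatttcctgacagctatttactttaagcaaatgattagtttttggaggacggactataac

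Lhfpl3 held CAGCTG at 158 and 149 bases before the start, and the 2 matches do not overlap. The other 6 promoters searched, those of Cspg4 and Bmp4 included, held none of the 3 motifs in this window. Over 32851 promoters of the same length CAGCTG was found in 16.3%, ACAAAG in 18.7% and ACAATG in 12.6%. The promoters were of 71.7% G and C for Ptprz1, 66.0% for Lhfpl3, 61.0% for Vcan, 55.3% for Neu4 and 51.0% for Pdgfra, against a median of 52.7% over all promoters. A match is a description of the letters, and nothing about binding was measured.

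Outside RTR113609 the fitted log2 fold changes of the 10 genes lay between -0.32 and 0.20. No gene passed in ASO 1, ASO 2, ASO 3, ASO 4, RTR113643, RTR113841 or RTR59155 against saline, 70 results in all, with a smallest adjusted p of 0.131 by edgeR's quasi-likelihood test. Over all tested genes these comparisons called 0.223% in ASO 1, 0.0831% in ASO 2, 1.7% in ASO 3, 0.0104% in ASO 4, 0.483% in RTR113643, 0.0883% in RTR113841 and 0.577% in RTR59155. At an unadjusted p below 0.05 stood 12 of the 70, where 11% of the 134722 tests over all genes in these 7 comparisons did. Of the 12, 4 were for Pdgfra at log2 fold changes of 0.18 in ASO 1, 0.15 in ASO 3, 0.14 in ASO 4 and 0.17 in RTR113841. DESeq2 also called none of the 70, and limma voom called 1, Pdgfra in ASO 3. All 8 comparisons share the same 5 saline libraries.

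**Figure D2:**
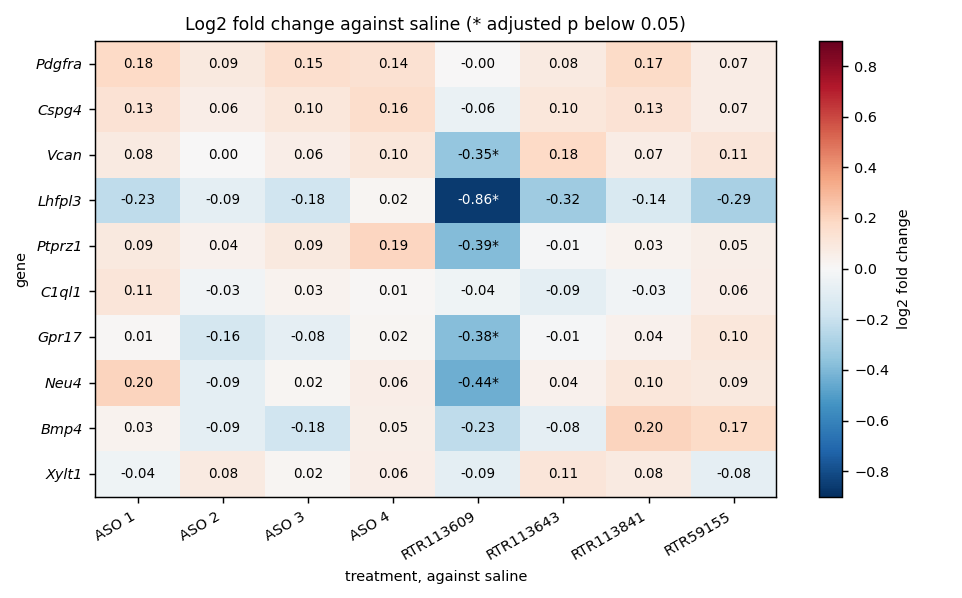
Log2 fold change of each gene (rows) in each of the 8 treatments (columns) against saline, with blue for lower, red for higher and an asterisk at an adjusted p below 0.05. The 5 asterisks all stand in the RTR113609 column, at -0.86 for Lhfpl3 to -0.35 for Vcan.

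Pdgfra averaged 67.6 ± 1.69 CPM in ASO 1 (SD, n = 3), 66.0 ± 6.13 in ASO 3 (SD, n = 4), 65.9 ± 4.87 in ASO 4 (SD, n = 5) and 67.1 ± 1.42 in RTR113841 (SD, n = 3). It averaged 63.2 ± 2.47 CPM in ASO 2, 63.2 ± 3.56 in RTR113643 and 62.8 ± 2.44 in RTR59155, and 59.6 ± 3.80 in saline (SD, n = 5 each). The lowest ASO 1 library, at 65.9 CPM, stood above the highest saline library, at 63.4 CPM, although the comparison did not pass (adjusted p = 0.191 by edgeR's quasi-likelihood test). In ASO 3 the libraries had 70.5, 71.6, 59.0 and 62.6 CPM, and without replicate 3, at 59.0 CPM, the log2 fold change of 0.20 passed (adjusted p = 0.0347 by edgeR's quasi-likelihood test). The 3 ASO 3 libraries kept in that fit all had Pmch above 5 CPM.

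Lhfpl3 was below saline in 7 of 8 treatments by its fitted value, and passed only in RTR113609. In RTR113643 it had 35.4, 30.3, 30.5, 35.4 and 34.8 CPM, against 41.2, 42.7, 37.6, 41.6 and 45.1 CPM in saline. These groups did not overlap, and the log2 fold change of -0.32 (SE 0.12) had an adjusted p of 0.236 by edgeR's quasi-likelihood test. With only those 2 groups in the fit it passed (adjusted p = 0.0181 by edgeR's quasi-likelihood test). In RTR59155 the mean was 34.1 ± 4.46 CPM (SD, n = 5), a log2 fold change of -0.29 against saline (adjusted p = 0.455 by edgeR's quasi-likelihood test). ASO 4 was the treatment above saline, at 42.3 ± 5.57 CPM (SD, n = 5).

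Vcan was at its highest in RTR113643, where the 5 libraries had 18.7 to 20.7 CPM, above the highest saline library at 18.3 CPM. The log2 fold change was 0.18 (SE 0.053), and the adjusted p of 0.131 by edgeR's quasi-likelihood test did not pass. Group means of Vcan in the other 6 treatments besides RTR113609 lay between 17.2 ± 0.785 CPM in ASO 2 and 18.6 ± 1.13 CPM in RTR59155 (SD, n = 5 each), and saline stood at 17.2 ± 1.07 CPM (SD, n = 5).

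Whether the 9 groups differed at all was tested gene by gene in the same model. Vcan (adjusted p = 1.07e-06), Neu4 (0.000513), Lhfpl3 (0.000539), Ptprz1 (0.000555) and Gpr17 (0.000956) passed by edgeR's quasi-likelihood test. That was 5 of 10, where 18.4% of all tested genes passed. The adjusted p was 0.0605 for Pdgfra, 0.103 for Xylt1, 0.138 for Cspg4, 0.181 for Bmp4 and 0.616 for C1ql1. RTR113609 had the lowest group mean for 9 of the 10 genes, the exception being C1ql1, whose lowest mean was in RTR113643. For Pdgfra that mean was equal to that of saline to 3 digits. From the highest to the lowest group mean the spread was 1.85-fold for Lhfpl3, 1.57-fold for Neu4, 1.5-fold for Ptprz1, 1.44-fold for Vcan and 1.39-fold for Gpr17. It was 1.34-fold for Bmp4 and 1.13- to 1.17-fold for Pdgfra, Cspg4, C1ql1 and Xylt1. Bmp4, the gene with the fewest reads, also had the largest standard deviation within groups, 0.214 on the log2 scale, against 0.078 for Vcan.

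RTR113609 was then compared with each of the other 7 treatments, which tests the difference between treatments directly. Among the 28 pairs of treatments, 280 tests on the 10 genes gave 38 calls, 36 of them among the 70 tests with RTR113609. Over all genes, 3.35% of tests passed in the 28 pairs together and 1.77% in the 21 pairs without RTR113609, where 2 of 210 tests on the 10 genes passed. In each of the 7 pairs Vcan, Lhfpl3, Ptprz1 and Neu4 were lower in RTR113609, and Gpr17 was lower in 6. Pairs share libraries. Adjusted over all 28 pairs at once, 36 tests passed, 35 of them with RTR113609.

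The share of all tested genes past the threshold in these pairs was 11.5% for RTR113609 against ASO 1, 5.9% against ASO 2, 9.45% against ASO 3 and 10.8% against ASO 4. It was 5.13% against RTR113643, 6.5% against RTR113841 and 7.32% against RTR59155. Log2 fold changes of Lhfpl3 in RTR113609 ran from -0.88 against ASO 4 to -0.53 against RTR113643, and those of Vcan from -0.53 against RTR113643 to -0.35 against ASO 2. For Ptprz1 they ran from -0.59 to -0.38, and for Neu4 from -0.65 to -0.35, with no adjusted p above 0.0134 for any of these 4 genes by edgeR's quasi-likelihood test. For Gpr17 the pair that did not pass was RTR113609 against ASO 2, at -0.21 (SE 0.077, adjusted p = 0.104 by edgeR's quasi-likelihood test). Pdgfra was lower in RTR113609 than in ASO 1 (-0.18, adjusted p = 0.0421 by edgeR's quasi-likelihood test), and Cspg4 was lower than in ASO 4 (-0.22, adjusted p = 0.0189).

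The 2 calls between other treatments concerned Neu4 and Gpr17. Neu4 was higher in ASO 1 than in ASO 2, at 13.6 ± 0.955 CPM in ASO 1 (SD, n = 3) and 11.1 ± 0.774 CPM in ASO 2 (SD, n = 5), where 10.5% of all tested genes differed (log2 fold change 0.29, adjusted p = 0.0431 by edgeR's quasi-likelihood test). Gpr17 was lower in ASO 2 than in RTR59155, at 58.4 ± 5.07 CPM in ASO 2 and 70.1 ± 9.43 CPM in RTR59155 (SD, n = 5 each), where 3.39% of all tested genes differed (-0.26, adjusted p = 0.0371). Within RTR59155 Gpr17 ranged widely, with 71.7, 78.2, 79.9, 61.7 and 59.1 CPM. Of 47 alternative fits the call for Neu4 was kept in 33 and that for Gpr17 in 36, at log2 fold changes of 0.14 to 0.34 for Neu4 and -0.32 to -0.19 for Gpr17. Both calls ended with regional covariates (0.14 for Neu4, -0.19 for Gpr17), without the 11 libraries of high Pmch (0.21, -0.30) and with an offset for gene span (0.26, -0.24). Both also ended without any 1 of ASO 2 replicates 3, 4 and 5 or RTR59155 replicates 1 and 2. The call for Neu4 ended too without ASO 1 replicate 1 or 2, and at adjusted p of 0.0505 to 0.0515 without replicate 1 of ASO 3, saline or RTR113609 or replicate 4 of RTR113643. That for Gpr17 ended without RTR59155 replicate 3 (-0.21), with no filter and with 2 groups only.

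Other genes of the lineage, taken from lists of markers, were set beside the 10 genes in RTR113609. In that comparison 4.32% of all tested genes were lower. Of 10 further precursor markers 2 fell and none rose, with a median log2 fold change of -0.12. Pcdh15, a protocadherin, stood at 7.84 ± 1.08 CPM in RTR113609 (SD, n = 4) and 12.8 ± 0.169 CPM in saline (SD, n = 5), a log2 fold change of -0.70 (adjusted p = 6.96e-08 by edgeR's quasi-likelihood test). Dcc, the netrin receptor, stood at 6.94 ± 1.13 CPM in RTR113609 (SD, n = 4) and 10.4 ± 0.331 CPM in saline (SD, n = 5), a log2 fold change of -0.58 (adjusted p = 0.000676). The other 8 did not pass, and 4 of the 10 had a positive fitted value.

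Of 17 transcription factors of the lineage 1 passed the test and none rose, near the share of all tested genes that were lower, 4.32%. Sox6, which keeps precursors immature, fell, at 22.7 ± 1.84 CPM in RTR113609 (SD, n = 4) and 27.0 ± 1.65 CPM in saline (SD, n = 5), a log2 fold change of -0.25 (adjusted p = 0.0111 by edgeR's quasi-likelihood test). Olig1, Olig2 and Sox10, which specify the lineage and are named here after their values were seen, did not pass. Olig1 had 142.0 ± 8.76 CPM in RTR113609 (SD, n = 4) and 147.7 ± 14.2 CPM in saline (SD, n = 5), and Sox10 had 70.7 ± 3.26 CPM in RTR113609 and 75.7 ± 3.55 CPM in saline. Olig2 had 33.2 ± 1.59 CPM in RTR113609 and 30.5 ± 0.876 CPM in saline, so its mean was above saline.

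Some genes of newly formed and mature oligodendrocytes also fell in RTR113609, where 4.32% of all tested genes were lower. Of 10 newly formed oligodendrocyte genes 4 fell and none rose, with a median log2 fold change of -0.24: Fyn (-0.20), a kinase of early myelination, Itpr2 (-0.34), a calcium release channel, Sirt2 (-0.22), a deacetylase, and Bcas1 (-0.33). Of 19 mature oligodendrocyte and myelin genes 6 fell and 2 rose, with a median of -0.07. The count of falls moved with single libraries, at 1 without RTR113609 replicate 4, 3 without replicate 2 and 4 without replicate 1 or saline replicate 1, 2, 4 or 5. Mbp, the myelin basic protein gene, had 3512 ± 306 CPM in RTR113609 (SD, n = 4) and 4466 ± 489 CPM in saline (SD, n = 5), a log2 fold change of -0.35 (adjusted p = 0.00151 by edgeR's quasi-likelihood test). Opalin, a membrane protein of oligodendrocytes, changed by -0.49 (adjusted p = 0.0108) and Mal, a proteolipid of compact myelin, by -0.30 (adjusted p = 0.0111). Mal did not pass without RTR113609 replicate 4 (-0.26, adjusted p = 0.0597 by edgeR's quasi-likelihood test). Trf, the transferrin gene, rose by 0.37 on the log2 scale (adjusted p = 0.00118), and the other that rose, named after its value was seen, was Apod (0.31, adjusted p = 0.0434). Only 1 gene rose with no filter, with an offset for gene span and in every fit without 1 library, except that without saline replicate 2. Trf passed in all of these, so the call lost was that of Apod.

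**Figure D3:**
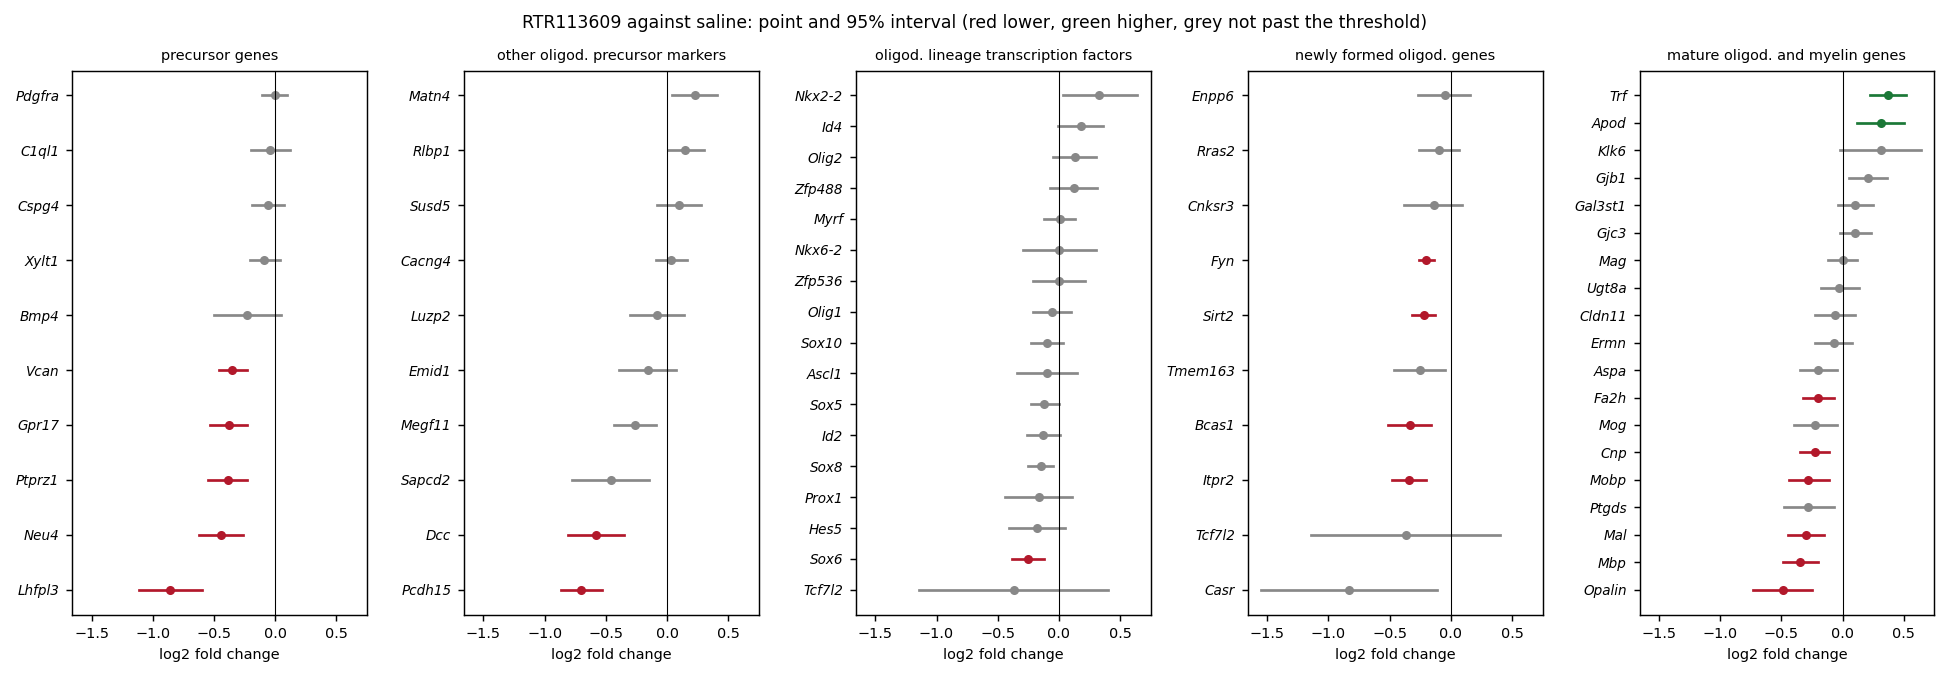
Log2 fold change in RTR113609 against saline with 95% interval (x axis) for each gene (rows) of 5 lists from precursor to mature oligodendrocyte, red where lower, green where higher and grey where the test did not pass. Lower calls number 5 of 10 precursor genes, 2 of 10 other precursor markers, 1 of 17 transcription factors, 4 of 10 newly formed and 6 of 19 mature genes. Over all tested genes 4.32% were lower, and the transcription factors were near that share.

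Ligands, partners and relatives of the 10 genes were taken by pathway, to be read beside the 4.32% of all tested genes lower in RTR113609. Pdgfa, the main ligand of Pdgfra, had 38.2 ± 2.67 CPM in RTR113609 (SD, n = 4) and 38.2 ± 2.23 CPM in saline (SD, n = 5), and 2 of 6 PDGF family genes fell, Pdgfd (-0.51, adjusted p = 0.017 by edgeR's quasi-likelihood test) and Pdgfrb (-0.18, adjusted p = 0.0342). Of 15 lecticans, versican partners and Ptprz1 ligands 2 fell, the lectican Bcan (-0.27, adjusted p = 0.000446) and the link protein gene Hapln4 (-0.26, adjusted p = 0.00115). Ptn, which encodes the Ptprz1 ligand pleiotrophin, had 324.1 ± 6.37 CPM in RTR113609 and 299.7 ± 17.3 CPM in saline and did not pass (adjusted p = 0.192). Of 18 BMP pathway genes 2 fell, the ligand Bmp6 (-0.31, adjusted p = 0.00143) and the target Id3 (-0.34, adjusted p = 0.0217).

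Among 11 tested paralogs and binding partners of the 10 genes, 2 fell. One was Ptprg, the nearest relative of Ptprz1, with 59.2 ± 1.71 CPM in RTR113609 (SD, n = 4) and 71.3 ± 1.45 CPM in saline (SD, n = 5), a log2 fold change of -0.27 (adjusted p = 0.00467 by edgeR's quasi-likelihood test). The other was Adgrb3, the receptor of C1ql1 (-0.16, adjusted p = 0.0305). Relatives of Lhfpl3 did not pass: Lhfpl4 had 185.6 ± 6.30 CPM in RTR113609 and 192.5 ± 6.86 CPM in saline, and Lhfpl2 had 23.0 ± 1.24 CPM in RTR113609 and 23.7 ± 3.07 CPM in saline. Of the sialidases, Neu1 stood at 63.6 ± 1.2 CPM in RTR113609 and 63.5 ± 1.87 CPM in saline. None of 15 genes of chondroitin sulfate synthesis passed, Xylt2 with 29.5 ± 1.37 CPM in RTR113609 and 30.6 ± 1.39 CPM in saline among them. None of 9 tested cell cycle genes passed, with 6 positive and 3 negative fitted values. Their list summed to only 6.97 to 7.83 CPM in RTR113609 and 5.82 to 7.52 CPM in saline, levels at which a change could be missed.

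Markers of other cells also differed in RTR113609, where 6.67% of all tested genes passed the test. Of 8 microglial genes 3 rose, Siglech (0.39), Tmem119 (0.29) and Aif1 (0.55), and the sum of the 8 was 531.2 to 568.2 CPM in RTR113609 and 465.7 to 562.2 CPM in saline. Astrocytes also carry Ptprz1. Of 8 astrocyte genes Aldoc rose (0.23) and Fgfr3 fell (-0.21), and 7 of the 8 had a negative fitted value, with a median of -0.08. Gja1 had 193.3 ± 26.5 CPM in RTR113609 (SD, n = 4) and 229.6 ± 20.2 CPM in saline (SD, n = 5). Its log2 fold change of -0.25 did not pass (adjusted p = 0.066 by edgeR's quasi-likelihood test), nor did the -0.26 of Aqp4 (adjusted p = 0.147). Both are named after their values were seen, and Aqp4 was the lowest of the 8. Gfap averaged 419.9 CPM in RTR113609 and 422.9 CPM in saline, and Aldh1l1 changed by -0.05. The sum of the 8 was 4664 to 5197 CPM in RTR113609 and 4497 to 5408 CPM in saline, of which Slc1a2 made up 2219 CPM in RTR113609 and 2256 CPM in saline on average and Aldoc 1190 CPM in RTR113609 and 1014 CPM in saline. The part of astrocytes in the fall of Ptprz1 was not tested. Of 8 endothelial genes Ly6c1 rose (0.27, adjusted p = 0.0375), with a sum of 284.0 to 303.6 CPM in RTR113609 and 265.7 to 296.0 CPM in saline. None of 6 neuronal, 6 neuroblast, 6 choroid plexus, 10 striatal or 7 tested hypothalamic genes passed. All 6 choroid plexus genes had negative fitted values (median -0.20), with a sum of 1005 to 1953 CPM in RTR113609 and 1543 to 2064 CPM in saline. All 10 striatal genes had positive fitted values, with a sum of 3631 to 4586 CPM in RTR113609 and 3200 to 4116 CPM in saline. The hypothalamic sum was 6.93 to 42.2 CPM in RTR113609 and 25.1 to 64.0 CPM in saline, with Npvf at 0 in at least 1 library of each group. With the means of the striatal and hypothalamic lists as covariates, a choice made with earlier results of these data known, the 5 genes still passed, at log2 fold changes of -0.84 for Lhfpl3, -0.38 for Neu4, -0.36 for Ptprz1, -0.34 for Vcan and -0.33 for Gpr17. The part of microglial, vascular and choroid plexus cells was not tested.

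The length of a gene from first to last base, its span, went with the size of the change in RTR113609. Of 6676 tested genes spanning under 10 kb the median log2 fold change was 0.034 and 1.15% were lower. The shares lower were 2.04% of 5393 genes of 10 to 30 kb, 4.19% of 4701 genes of 30 to 100 kb and 10.6% of 1882 genes of 100 to 300 kb. Over 300 kb, 247 of 559 genes were lower, 44.2%, with a median of -0.20. Lhfpl3 spans 529.5 kb (GRCm38, chromosome 5, 22746059 to 23275597, plus strand), Ptprz1 177.4 kb (chromosome 6, 22875502 to 23052916, plus strand) and Vcan 87.2 kb (chromosome 13, 89655312 to 89742509, minus strand). Neu4 spans 7.9 kb (chromosome 1, 94020451 to 94028334, plus strand) and Gpr17 6.6 kb, so genes of the longest and the shortest spans were among the 5 that fell.

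Within its own span class each of the 5 stood near the bottom. The 5 were picked by these same fold changes, so a low rank partly follows from that choice and is no test. At or below Lhfpl3 lay 4.29% of the genes over 300 kb, at or below Ptprz1 4.62% of those of 100 to 300 kb, and at or below Vcan 4.47% of those of 30 to 100 kb. At or below Neu4 lay 4.46% and at or below Gpr17 5.95% of the genes under 10 kb. Xylt1, which spans 292.6 kb (chromosome 7, 117380979 to 117673580, plus strand), had 38.6% of its class at or below it, and Pdgfra, at 45.9 kb (chromosome 5, 75152292 to 75198215, plus strand), had 52.8%. Of the other genes over 300 kb that fell, Pcdh15 (1550.4 kb) had 8.77% of the class at or below it and Dcc (1097.4 kb) 12.2%. Itpr2 (393.9 kb) had 27.9%, Ptprg (688.5 kb) 37.9% and Sox6 (567.9 kb) 41.9%, and Adgrb3 (762.2 kb) had 57.1%, so its fall was smaller than the median of its class. With an offset that removes the trend with span, an alternative chosen after seeing the data, the log2 fold changes were -0.65 for Lhfpl3, -0.47 for Neu4, -0.40 for Gpr17, -0.32 for Ptprz1 and -0.32 for Vcan, and all 5 still passed (largest adjusted p = 0.00602 by edgeR's quasi-likelihood test).

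**Figure D4:**
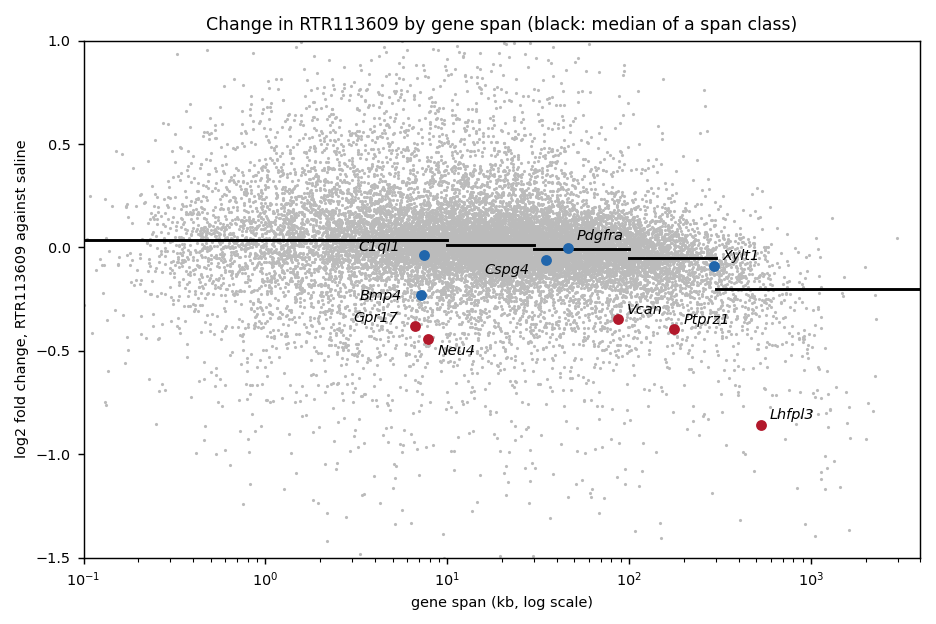
Log2 fold change in RTR113609 against saline (y axis, shown from -1.5 to 1, with 179 genes beyond it) against gene span in kb (x axis, log scale) for all tested genes with a span, grey, and the 10 precursor genes, red where lower and blue where not past the test. Black lines are class medians, from 0.034 under 10 kb to -0.20 over 300 kb. The 5 red points lie below the line of their class, which follows from their being picked as lower and is no test.

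Across libraries of the same group the 10 genes did not move as 1 block. Log2 levels were centred on the mean of each group, and Pearson's r was taken over 39 libraries, which share depth and the mix of tissue in each sample. Of 45 pairs of the 10 genes 29 were positive, with a median r of 0.09. Ptprz1 and Pdgfra (0.77), Lhfpl3 and Pdgfra (0.66) and Ptprz1 and Lhfpl3 (0.52) formed the closest trio, and Gpr17 and Vcan followed (0.50). The lowest pair was Bmp4 and Lhfpl3 (-0.46). Pdgfra and Lhfpl3 thus varied together within groups, although between RTR113609 and saline Lhfpl3 fell and Pdgfra did not pass.

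**Figure D5:**
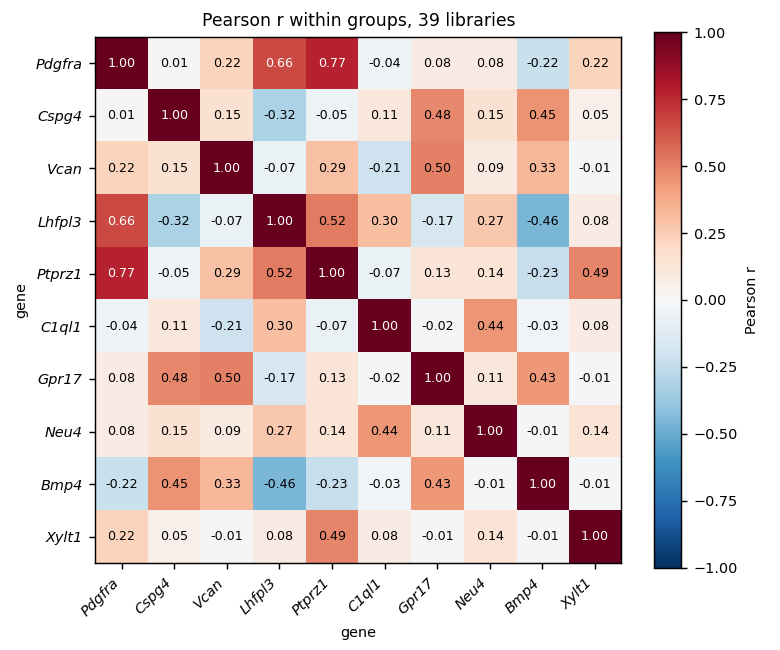
Pearson's r between each pair of the 10 genes (rows and columns) over 39 libraries, after the mean of each group was taken out, with red for positive and blue for negative values. Pdgfra, Lhfpl3 and Ptprz1 form a red trio at 0.52 to 0.77, while Bmp4 and Lhfpl3 are at -0.46.

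By the same measure the genes most like each of the 10 were sought among tested genes with at least 1 CPM. That search covers far more genes than the list, so a high r found in it says nothing about the list. Gja1, the main connexin of astrocytes, was closest to Ptprz1 (r = 0.86), and the mean of 8 astrocyte genes also followed it (0.68). For Lhfpl3 the closest were Nap1l5 (0.93) and Gabrg1 (0.91), a GABA receptor subunit, and the neuroblast list mean followed it at 0.74. Pdgfra was closest to Sema5a (0.83), Cspg4 to Tln1 (0.77), Gpr17 to Tnfrsf1a (0.79), Vcan to Parp9 (0.69) and Neu4 to Trp53bp2 (0.69). C1ql1 was closest to Map3k21 (0.65), Bmp4 to Nr1h3 (0.71) and Xylt1 to Apc (0.75). The nearest list means were newly formed oligodendrocytes for Pdgfra (0.67), pericytes for Cspg4 (0.56) and Bmp4 (0.39), endothelial cells for Vcan (0.56) and myelin for Neu4 (0.56). For C1ql1 the nearest was the list of other precursor markers (0.48). Xylt1 had 0.50 with that list and 0.51 with chondroitin sulfate synthesis. Gpr17 was nearest to microglia (0.61), with astrocytes (0.58), pericytes (0.57) and the lectican list (0.57) close behind. The mean of all 10 genes was most like Lamp1, Ucp2 and Itpkb (0.76 each). These are descriptions over libraries and carry no test.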

How the data were processed

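Per the labels, polyadenylated RNA was prepared with a stranded TruSeq mRNA kit. Reads were aligned with GSNAP to GRCm38, per the submitters' processing notes. The sources used here give no versions, counting tool, annotation release or strand setting. Per the file headers, each deposited file gives for 52636 genes a count of reads, the gene width in bases and RPKM (reads divided by gene width and by library size). The deposited counts, 86.1 to 88.2% of the total that the deposited RPKM values imply, were tested; RPKM served for levels between genes.

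Libraries were grouped by the labels into 9 groups. Libraries with identical values numbered 0. Genes were kept by filterByExpr and scaled by TMM in edgeR 4.0.16 (R 4.3.3), and one model of 9 groups was fitted. The quasi-likelihood test, two-sided, was applied to each treatment against saline, to any difference and to 28 pairs of treatments. P-values were adjusted over 19246 genes (Benjamini-Hochberg), and the threshold was 0.05. SE is the size of the log2 fold change divided by the square root of F. All adjusted p-values come from this test unless another is named. The test was checked on simulated counts. CPM are scaled counts; log2 levels used a prior count of 2.

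The 10 genes and 21 lists, 217 genes in all, were chosen with earlier results of these data known. One item of these lists is not reported here, and list counts leave it out. All 10 are always named. Of other lists, up to 4 genes past the threshold per comparison are named by smallest adjusted p, and paralogs, ligands and receptors of the 10 may be named with their levels; likeness names the 10 tested genes nearest the mean and the 3 nearest each gene with at least 1 CPM, of which the first are printed. Spans come from GENCODE M21, promoters from RefSeq. Alternatives were limma 3.58.1 (voom with sample weights), DESeq2 1.42.0, median-of-ratios scaling, no filter, 2 groups only, regional covariates, leaving out libraries with Pmch above 5 CPM, and leaving out each library.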

Additional observations from a re-analysis of the deposited data

How the results depend on the processing

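The 5 falls in RTR113609 held in 8 other settings and in 9 fits that left out 1 library each. Among the 8, leaving out libraries with Pmch above 5 CPM removed no RTR113609 or saline library. That setting could act on the 5 only through the fit shared by all groups. Log2 fold changes over these 17 ranged from -1.05 to -0.65 for Lhfpl3, -0.52 to -0.38 for Neu4, -0.47 to -0.32 for Ptprz1, -0.42 to -0.33 for Gpr17 and -0.38 to -0.32 for Vcan, with a largest adjusted p of 0.0274. Among the alternative values of single genes, 1343 stayed within 1 SE or kept their call, 34 uncalled values moved by more, and 3 passed the threshold. These were Pdgfra in ASO 3 with limma voom (0.16, adjusted p = 0.0437) and without ASO 3 replicate 3 (0.20, adjusted p = 0.0347), and Lhfpl3 in RTR113643 with 2 groups only (-0.32, adjusted p = 0.0181). The count of precursor genes past the threshold was therefore 1 in place of 0 for ASO 3 with limma voom, 0 to 1 over its leave-one-out fits, and 1 for RTR113643 with 2 groups only. Calls in pairs of treatments numbered 24 in place of 38 without the libraries with Pmch above 5 CPM, a setting that leaves fewer samples and 1 library each in ASO 1 and ASO 3, whose spread is taken from the other groups. They numbered 29 to 40 in the other settings and 33 to 39 over 39 leave-one-out fits. For any difference, 5 or 6 genes passed in every fit, with Pdgfra the added gene under DESeq2 and limma voom.

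Counts over all genes depended more on the setting. For RTR113609 they were 1283, and 886 to 1748 elsewhere. For ASO 1 they were 43 and 11 to 135 elsewhere, with 11 when the libraries with high Pmch were left out. For ASO 2 they were 16 and 5 to 290, with 213 under DESeq2, 269 under voom and 290 with 2 groups. For ASO 3 they were 327 and 25 to 934, with 934 under voom, 557 under DESeq2, 101 with covariates and 25 without the high-Pmch libraries. For RTR113643 they were 93 and 39 to 187 elsewhere, for RTR59155 111 and 59 to 176, for RTR113841 17 and 8 to 33, for ASO 4 2 and 2 to 8. For any difference they were 3543, with 5417 under voom, 1523 under covariates and 997 without the high-Pmch libraries, and for the 28 pairs together 18035, with 7578 under covariates and 5897 without those libraries. The cause was not tested. No paired analysis was possible because the labels number no replicates and the numbers used only follow the order of samples. Depth limits Bmp4 most, at 71 to 243 counts per library.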

Other observations

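Myelin genes passed the test in 4 treatments in which none of the 10 precursor genes did; whether the lists differ in this was not tested. Of 19 myelin genes, 3 rose and 3 fell in ASO 3, 2 rose in ASO 1, 1 rose and 1 fell in RTR59155 and 1 fell in RTR113643, against the same 5 saline libraries. Over all tested genes 1.7% passed in ASO 3, 0.223% in ASO 1, 0.577% in RTR59155 and 0.483% in RTR113643. In ASO 3, 4 of 7 tested hypothalamic genes rose (median 1.94), all 10 striatal genes had negative fitted values (median -0.42), and 3 of the 4 libraries had Pmch above 5 CPM. Without the libraries above 5 CPM, which leaves 1 library each in ASO 1 and ASO 3, 1 myelin gene fell and none rose in ASO 3, none passed in ASO 1 or RTR113643, and 1 rose and 1 fell in RTR59155. With regional covariates 1 rose and 5 fell in ASO 3 and none passed in ASO 1. None passed in ASO 1 without its replicate 1 or 2 or saline replicate 1 or 3, nor in RTR113643 without its replicate 2 or 4 or saline replicate 2. Mal was lower than in saline in ASO 3 (log2 fold change -0.59, adjusted p = 6.07e-06), RTR113609 (-0.30, adjusted p = 0.0111), RTR113643 (-0.35, adjusted p = 0.0138) and RTR59155 (-0.53, adjusted p = 1.54e-05), all by edgeR's quasi-likelihood test. Trf was higher in ASO 1 (0.38, adjusted p = 0.0257), ASO 3 (0.54, adjusted p = 1.57e-05), RTR113609 (0.37, adjusted p = 0.00118) and RTR59155 (0.36, adjusted p = 0.0048). Dcc, one of the further precursor markers, was also lower in RTR59155 (-0.49, adjusted p = 0.0145), where Lhfpl3 had a log2 fold change of -0.29 and did not pass. The only other call among these markers outside RTR113609 was a rise, that of Susd5 in ASO 3 (0.32, adjusted p = 0.0449). Of the lineage transcription factors, Sox8 was lower in ASO 3 (-0.32, adjusted p = 7.54e-05 by edgeR's quasi-likelihood test).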
